A study of Mus musculus with 13 samples.

Results

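The 90-kDa heat shock proteins and the co-chaperones that work with them were examined in RNA-seq libraries of mammary glands and HER2-driven mammary tumors, including tumors that had regrown under an HSP90 inhibitor. The 10 genes were taken by symbol from a table of 24421 genes. They were the cytosolic paralogs Hsp90aa1 and Hsp90ab1, the endoplasmic reticulum paralog Hsp90b1, the mitochondrial paralog Trap1, and the co-chaperone genes Cdc37, Ahsa1, Stip1, Ptges3, Fkbp4 and Fkbp5. All 10 had a row in the table and all 10 passed the filter on low counts.

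All animals were female FVB/N-TgN mice of the 202Mul/J line, whose transgene the labels write as MMTV-HER2/neu. They carry a rat HER2/Neu cDNA driven by the MMTV long terminal repeat, which is active in mammary epithelium. The labels give their genotype as wild type. The age at sampling was not given in the sources used here. There were 13 libraries. Of these, 2 came from mammary glands of untreated mice, 3 from primary tumors of untreated mice, and 3 from primary tumors of mice given stavudine (STV). Another 3 came from tumors that recurred after 17-DMAG, and 2 from tumors that recurred after 17-DMAG with STV. STV, a nucleoside inhibitor of reverse transcriptase, was given in drinking water at 1 mg/mL, starting either before tumors appeared or after. 17-DMAG, a geldanamycin derivative that inhibits HSP90, was injected at 20 mg/kg 3 times a week, so the recurrent tumors were sampled from animals still being dosed. Recurrence and exposure to 17-DMAG therefore cannot be told apart in these groups. The study reports that tumors recurred later, on average, in mice given STV. Among recurrent tumors, STV therefore cannot be told apart from the time under 17-DMAG or from age.

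HSP90 is an ATP-dependent chaperone that acts late in folding, on clients that include protein kinases and steroid hormone receptors. HER2 is one of its best-known kinase clients. Clients reach cytosolic HSP90 by way of HSP70 and the adaptor STIP1 (HOP), or by way of the kinase adaptor CDC37. AHSA1 stimulates the ATPase, PTGES3 (p23) stabilizes the closed state, and FKBP4 and FKBP5 are immunophilins that bind receptor complexes. Drugs that occupy the ATP pocket of HSP90 are known to release heat shock factor HSF1, which then drives genes for cytosolic chaperones. HSP90B1 (GRP94) belongs to another program, the unfolded protein response, together with HSPA5 (BiP).

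The promoters were searched for short sequences known from these programs, which does not assign a gene to a program. The 250 bases upstream of the annotated start were read from RefSeq (GRCm38.p6), where 8 of the 10 genes had an entry, all but Hsp90aa1 and Hsp90ab1. The ER stress response element, CCAAT followed by 9 bases of any kind and CCACG, was searched on both strands and was found in 37 of 32851 such windows (0.113%). Hsp90b1 held 2 copies of it, shown in capitals in its whole window at chr10:86705445-86705694, minus strand. The copy at 212 bases upstream reads forward and the copy at 107 bases upstream reads in reverse.
Hsp90b1: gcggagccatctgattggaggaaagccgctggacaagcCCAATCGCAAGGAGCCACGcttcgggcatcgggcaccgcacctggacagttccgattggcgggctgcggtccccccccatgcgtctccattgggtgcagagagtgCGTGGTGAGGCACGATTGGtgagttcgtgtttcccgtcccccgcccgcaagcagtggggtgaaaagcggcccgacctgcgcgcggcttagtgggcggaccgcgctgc

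Of 18 ER chaperone genes listed for comparison, 16 had an entry and 6 of these held the same element. Their sites are shown because these genes recur beside Hsp90b1 in the expression data, with the element in capitals and 10 flanking bases on each side. Calr and Creld2 carry it in reverse.
Hspa5: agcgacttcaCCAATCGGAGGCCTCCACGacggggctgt
Pdia6: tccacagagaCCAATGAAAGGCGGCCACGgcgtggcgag
Canx: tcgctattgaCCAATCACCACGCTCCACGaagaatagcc
Dnajc3: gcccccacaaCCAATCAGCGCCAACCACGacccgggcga
Calr: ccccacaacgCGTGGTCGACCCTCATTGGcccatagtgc
Creld2: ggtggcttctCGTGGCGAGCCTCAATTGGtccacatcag

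The 19-base elements lie at chr2:34772025-34772043 (Hspa5, plus strand), chr12:17266491-17266509 (Pdia6, plus), chr11:50325800-50325818 (Canx, minus), chr14:118937827-118937845 (Dnajc3, plus), chr8:84847075-84847093 (Calr, minus) and chr15:88819520-88819538 (Creld2, plus). For heat shock elements, the minimal pairs GAANNTTC and TTCNNGAA were searched. Each reads the same on both strands. The pairs were common, in 6.69% and 7.17% of all windows. Among the 10 genes, Fkbp4 held the former at chr6:128438800-128438807 and Cdc37 held the latter at chr9:21150097-21150104, both on the minus strand. The promoter of Hspb1, a small heat shock protein gene described below, held 2 of the former at chr5:135887802-135887809 and chr5:135887822-135887829, plus strand.
Fkbp4: cgcttctctaGAAAGTTCtccgctcccg
Cdc37: cggcgggaacTTCCAGAAggcctcacca
Hspb1, distal: ttcaacaagaGAAGTTTCcagatggggg
Hspb1, proximal: gatgggggcaGAACCTTCctggccccgc

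No match to any of the motifs was found in the windows of Trap1, Ahsa1, Stip1, Ptges3 and Fkbp5, which says only that these letters were absent there. The windows follow RefSeq starts, which can differ from the GENCODE gene positions given below. The Fkbp5 window (chr17:28486150-28486399) lies inside its GENCODE gene, and the Ahsa1 window (chr12:87266478-87266727) almost wholly so. Sequence upstream of the GENCODE starts of Ahsa1 and Fkbp5 was therefore not searched in full. A longer heat shock element of 3 units was also searched and was found in 0.466% of all windows. Of the 10 genes, 8 had an entry and 0 of these held it. Of the 15 heat shock genes described below, Hspb1 among them, 12 had an entry and 0 held it. In the lists examined, only the mitochondrial chaperone genes Hspd1 and Hspe1 held it. A match is a description of sequence, and binding was not measured.

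Total counts per library ran from 39921388 to 56887708. Values are given as CPM, counts scaled to the library total after adjustment by the trimmed mean of M values (TMM). The limit that a count of 0 allows, 3 counts, corresponded to 0.0587 to 0.107 CPM, well under every value below. The mammary gland of replicate 2 stood apart, with 764799 CPM of summed milk protein genes against 28062 in replicate 1 and 4604 to 23368 in the tumors, and its TMM factor was 0.493 against 0.999 to 1.12 elsewhere. Both glands held more adipocyte transcript (656 and 783 CPM summed over 6 markers) than any tumor (5.31 to 89.3). The glands are whole tissue, and in bulk RNA fewer cells of a type and less RNA per cell cannot be told apart. The labels number the replicates without saying that each came from a separate mouse, so p-values measure the spread between these samples.

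Hsp90ab1, the constitutive cytosolic paralog, was the most abundant of the 10 per unit length. Its median over the 11 tumors was 454 CPM per kb of transcript, against 369 for Hsp90b1 and 77.0 for Hsp90aa1, the stress-inducible paralog. The co-chaperones lay lower, at 57.7 for Ptges3, 55.0 for Fkbp4, 41.1 for Ahsa1, 29.2 for Stip1 and 22.9 for Fkbp5, with Trap1 at 34.3. Cdc37 is left out of this order because its value hangs on a transcript model of 7851 bases. Hsp90aa1 made up 16.0% to 21.2% of the cytosolic HSP90 counts in tumors, and 18.6% and 26.6% in the glands. The level of Hsp90aa1 is uncertain, because 58.5% of the 50-base stretches of its transcript also occur in transcripts of other genes, chiefly the pseudogenes Gm12346 and Gm5844, which have no row in the count table. That share was 22.2% for Ptges3, 14.6% for Ahsa1 and 5.59% or less for the others.

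**Figure D1:**
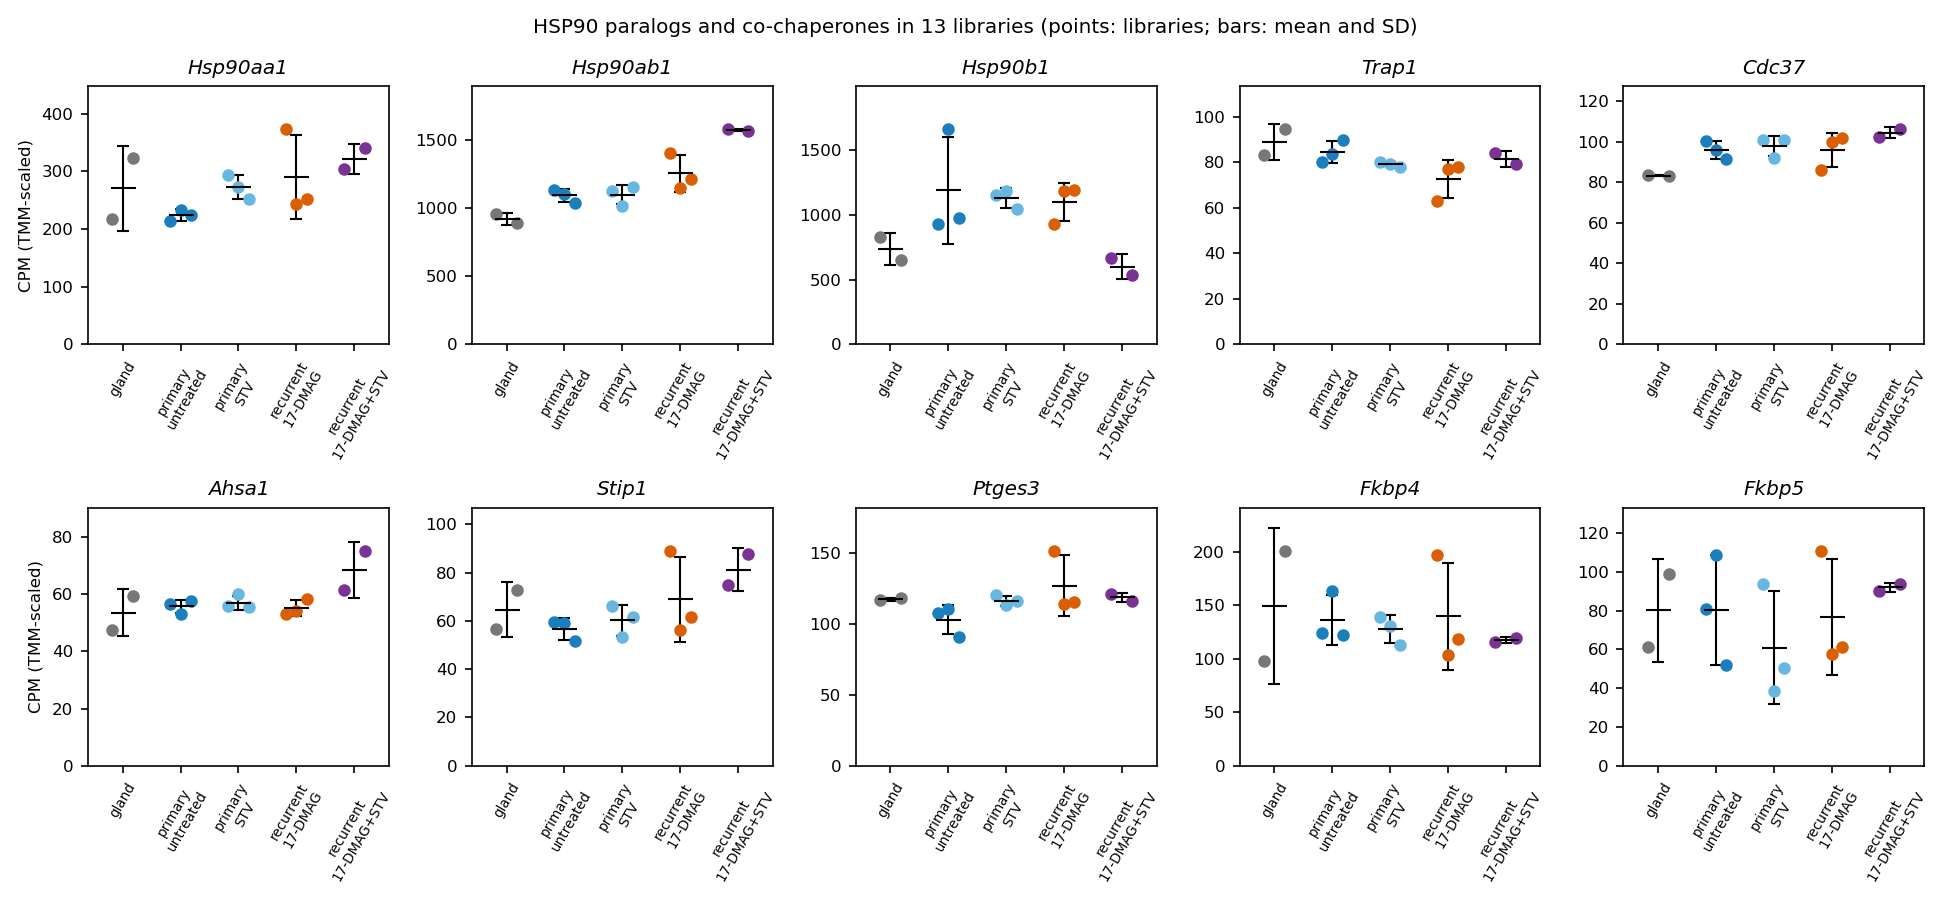
TMM-scaled CPM (y axis, starting at 0) of the 10 genes in each group (x axis); points are libraries and bars are the mean with SD. For Hsp90ab1 the 2 tumors that recurred under 17-DMAG with STV sit at 1565 and 1579.8, above every other library, and for Hsp90b1 one of them, at 531, is the lowest of all 13.

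Hsp90ab1 (chr17:45567775-45573271, minus strand, GRCm38) was measured at 952 and 891 CPM in the glands. It was at 1131, 1106 and 1039 CPM in primary untreated tumors and at 1121, 1018 and 1154 CPM in primary STV tumors. Recurrent tumors held 1407, 1144 and 1213 CPM after 17-DMAG, and 1579.8 and 1565 CPM after 17-DMAG with STV. Both glands were below every tumor, and the 2 tumors that recurred under both drugs were above every other library. In order of group means, the glands (922 ± 43.5, SD, n = 2) did not overlap the primary untreated tumors (1092 ± 47.3, n = 3). These overlapped the primary STV tumors (1098 ± 70.9, n = 3), which in turn overlapped the 17-DMAG recurrences (1255 ± 136, n = 3). The recurrences under both drugs (1572 ± 10.6, n = 2) were apart from the latter.

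For recurrent against primary tumors, averaged over mice without and with STV, the log2 fold change of Hsp90ab1 was 0.35 (SE 0.094, 95% interval 0.14 to 0.56). It ranked 220 of 16870 genes by p, and its edgeR adjusted p was 0.287. Under DESeq2 the same difference had an adjusted p of 0.00517. Within the arms, it was 0.19 without STV (edgeR adjusted p = 0.574) and 0.52 with STV (edgeR adjusted p = 0.328; DESeq2 adjusted p = 0.00703). The difference between the arms was 0.34 (95% interval -0.09 to 0.76, edgeR adjusted p = 0.705). For tumors against glands the log2 fold change was 0.43 (SE 0.13, edgeR adjusted p = 0.0649), with adjusted p of 0.00164 under DESeq2 and 0.0371 under limma voom. The comparison rests on 2 glands.

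Hsp90aa1 (chr12:110690605-110702728, minus) was at 218 and 323 CPM in the glands. Primary untreated tumors, at 215, 234 and 225 CPM, were the lowest tumor group. Primary STV tumors had 295, 274 and 253 CPM, all above the untreated ones. After 17-DMAG the recurrences had 374, 244 and 252 CPM, so that replicate 1 stood above the rest of its group, and after both drugs 303 and 340.3 CPM. Every neighbouring pair of groups in the order of means overlapped. Recurrent against primary tumors differed by 0.30 on the log2 scale (SE 0.13, edgeR adjusted p = 0.351), and by 0.19 without replicate 1 of the 17-DMAG recurrences. STV against water in primary tumors differed by 0.27 (95% interval -0.10 to 0.65, edgeR adjusted p = 1.00).

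Hsp90b1 (chr10:86690209-86705509, minus) differed in the other direction. It was at 825 and 649 CPM in the glands, and at 929, 1664 and 973 CPM in primary untreated tumors, of which replicate 2 was the highest library of all. Primary STV tumors had 1157, 1186 and 1042 CPM, and the 17-DMAG recurrences 931, 1184 and 1190.2 CPM. The recurrences under both drugs had 668 and 531 CPM, below every other tumor. Their range, around a mean of 599.7 ± 97.0 (SD, n = 2), overlapped that of the glands (mean 737 ± 125, n = 2). The next group, the 17-DMAG recurrences, did not overlap the glands, and the 3 tumor groups other than the recurrences under both drugs overlapped one another.

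Among recurrent tumors, STV with 17-DMAG against 17-DMAG alone gave a log2 fold change of -0.87 for Hsp90b1 (SE 0.27, 95% interval -1.47 to -0.27, edgeR adjusted p = 0.434). Recurrent against primary tumors within STV gave -0.91 (SE 0.27, edgeR adjusted p = 0.339; DESeq2 adjusted p = 0.0418). Without STV, recurrent against primary was -0.13 (edgeR adjusted p = 0.835), and turned to 0.21 without replicate 2 of the primary untreated tumors. The difference between the arms, -0.78, had a 95% interval of -1.57 to 0.0033 (edgeR adjusted p = 0.636). Averaged over the arms, recurrent against primary was -0.52 (SE 0.18, edgeR adjusted p = 0.313), and -0.36 without primary untreated replicate 2. These contrasts share samples, so their values are not independent of each other. The gene overlaps the pseudogene 1810014B01Rik on the other strand, which had 1.39 to 6.11 CPM.

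The ratio of Hsp90b1 to Hsp90ab1 counts needs no scaling between libraries. It was 0.822 to 1.505 in the 6 primary tumors and 0.662 to 1.04 in the 17-DMAG recurrences. The recurrences under both drugs had 0.423 and 0.339, and the glands 0.867 and 0.728. The 2 recurrences under both drugs thus had the lowest ratios of the 13 libraries, and the next lowest was 0.662 in replicate 1 of the 17-DMAG recurrences.

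**Figure D2:**
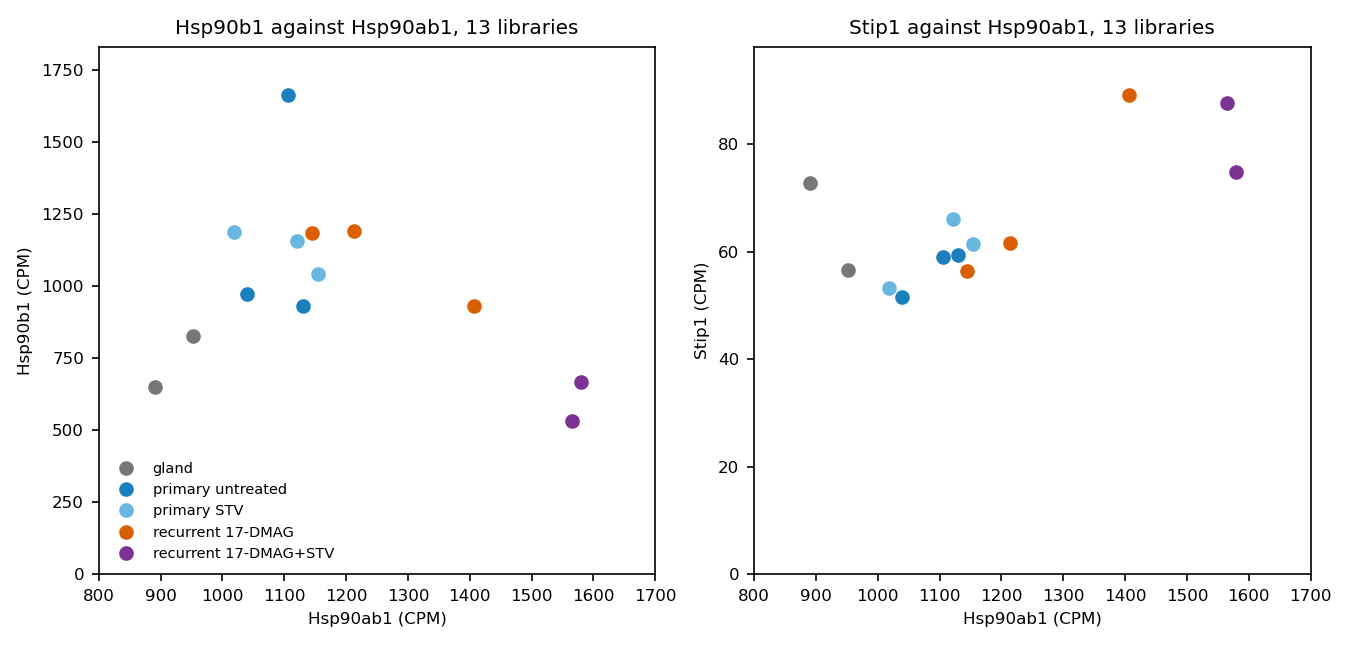
Hsp90b1 and Stip1 (y axes, CPM starting at 0) against Hsp90ab1 (x axis, CPM, not starting at 0) in the 13 libraries, colored by group. The 2 recurrences under both drugs lie at the right with Hsp90b1 at 668 and 531 CPM, and over the 11 tumors Stip1 follows Hsp90ab1 (r = 0.90).

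Trap1 (chr16:4039971-4077827, minus) was the steadiest paralog apart from a single tumor. It was at 83.5 and 94.7 CPM in the glands, 80.3, 83.6 and 89.8 in primary untreated tumors and 80.3, 79.5 and 78.2 in primary STV tumors. The 17-DMAG recurrences had 62.9, 76.9 and 78.2 CPM and the recurrences under both drugs 84.0 and 79.2. Replicate 1 of the 17-DMAG recurrences was the lowest library, and all neighbouring groups overlapped. Without STV, recurrent tumors lay 0.23 below primary ones on the log2 scale (SE 0.10, unadjusted p = 0.0496 and adjusted p = 0.510 in edgeR). The gene overlaps Dnase1 on the other strand, which had 3.14 to 6.28 CPM.

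Cdc37 (chr9:21133222-21149982, minus), the adaptor for kinase clients such as HER2, was at 83.5 and 82.9 CPM in the glands and at 85.9 to 106 CPM in the tumors. The glands lay below every tumor, and tumors against glands differed by 0.24 on the log2 scale (SE 0.10, edgeR adjusted p = 0.142). Recurrent tumors (99.2 ± 7.78, SD, n = 5) and primary tumors (96.8 ± 4.42, n = 6) differed by 0.041 (95% interval -0.12 to 0.20, edgeR adjusted p = 0.818).

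Ahsa1 (chr12:87266479-87273998, plus), the ATPase activator, was at 53.2 to 60.0 CPM in the 6 primary tumors. The 17-DMAG recurrences had 53.3, 54.1 and 58.6 CPM and the recurrences under both drugs 61.6 and 75.4 CPM, the 2 highest of all libraries. Among recurrent tumors, those given STV as well were higher by 0.32 (SE 0.12, unadjusted p = 0.0229 and adjusted p = 0.550 in edgeR), and by 0.15 without replicate 2 of the recurrences under both drugs. That tumor had 1894 CPM of skeletal muscle markers. Over the 11 tumors Ahsa1 had r = 0.71 with those markers (0.73 without 2 tumors) and -0.82 with proliferation markers (0.14 without 2 tumors), and their part was not tested.

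Stip1 (chr19:7020702-7039967, minus), which bridges HSP70 and HSP90, was at 56.5 and 72.9 CPM in the glands. Primary untreated tumors had 59.5, 59.1 and 51.6 CPM, and primary STV tumors 66.0, 53.3 and 61.5 CPM. The recurrences had 89.2, 56.4 and 61.6 CPM after 17-DMAG and 74.9 and 87.7 CPM after both drugs. The 3 highest libraries were recurrent tumors, while the other 2 recurrences lay within the primary range. Recurrent against primary differed by 0.35 (SE 0.13, 95% interval 0.05 to 0.65, edgeR adjusted p = 0.330), and by 0.24 without replicate 1 of the 17-DMAG recurrences.

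Ptges3 (chr10:128058954-128077272, plus), the gene of p23, was at 117 and 118 CPM in the glands. Primary untreated tumors had 108, 110.5 and 91.2 CPM, all below the primary STV tumors at 120.3, 113 and 116 CPM. The recurrences had 152, 114 and 115 CPM after 17-DMAG and 121 and 116 CPM after both drugs. Replicate 1 of the 17-DMAG recurrences was again the highest library. Recurrent against primary differed by 0.16 (SE 0.099, edgeR adjusted p = 0.485).

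Of the immunophilin genes, Fkbp4 spread most in the glands and the 17-DMAG recurrences. Fkbp5 spread widely in every group but the recurrences under both drugs. That group held 2 libraries, too few to show a narrow spread. Fkbp4 (chr6:128429735-128438677, minus) was at 98.0 and 201 CPM in the glands, 113 to 163 CPM in primary tumors, 197, 103 and 119 CPM in the 17-DMAG recurrences, and 115 and 119.5 CPM after both drugs. Fkbp5 (chr17:28399094-28517527, minus), a target of the glucocorticoid receptor, was at 61.4 and 99.0 CPM in the glands and from 38.4 to 111 CPM in the tumors, and all neighbouring groups overlapped. Recurrent against primary gave -0.049 for Fkbp4 (95% interval -0.44 to 0.34) and 0.26 for Fkbp5 (95% interval -0.40 to 0.91), with edgeR adjusted p of 0.919 and 0.704.

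None of the 10 genes passed an adjusted p of 0.05 with edgeR in any of the 7 comparisons. For recurrent against primary tumors edgeR called 0% of 16870 genes, and limma voom 0%, while DESeq2 called 2.5% and, of the 10, Hsp90ab1. At an unadjusted p under 0.05, where 13.6% of all genes fell, 4 of the 10 were found, with Hsp90ab1, Hsp90aa1 and Stip1 higher and Hsp90b1 lower. None of the 10 separated the 6 primary from the 5 recurrent tumors without overlap, as 1.34% of all genes did. The median log2 fold change of the 10 was 0.14, beside 0.0018 over all genes.

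Within mice without STV, edgeR again called 0% and DESeq2 0.422%, none of them among the 10. There 1 of the 10 had an unadjusted p under 0.05 (9.69% of all genes), and 4 of the 10 separated the groups, against 15.1% of all genes. Hsp90aa1, Hsp90ab1 and Ptges3 were higher in recurrent tumors and Trap1 was lower. With STV, edgeR called 0% and DESeq2 2.1%, among them Hsp90ab1 and Hsp90b1, and 3 of the 10 had an unadjusted p under 0.05 (10.1% of all genes). Of the 10, 6 did not overlap between groups, where 35.3% of all genes did not. Hsp90aa1, Hsp90ab1, Cdc37, Ahsa1 and Stip1 were higher and Hsp90b1 was lower. The median log2 fold change of the 10 was 0.00050 without STV (all genes -0.0052) and 0.17 with STV (all genes 0.015).

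**Figure D3:**
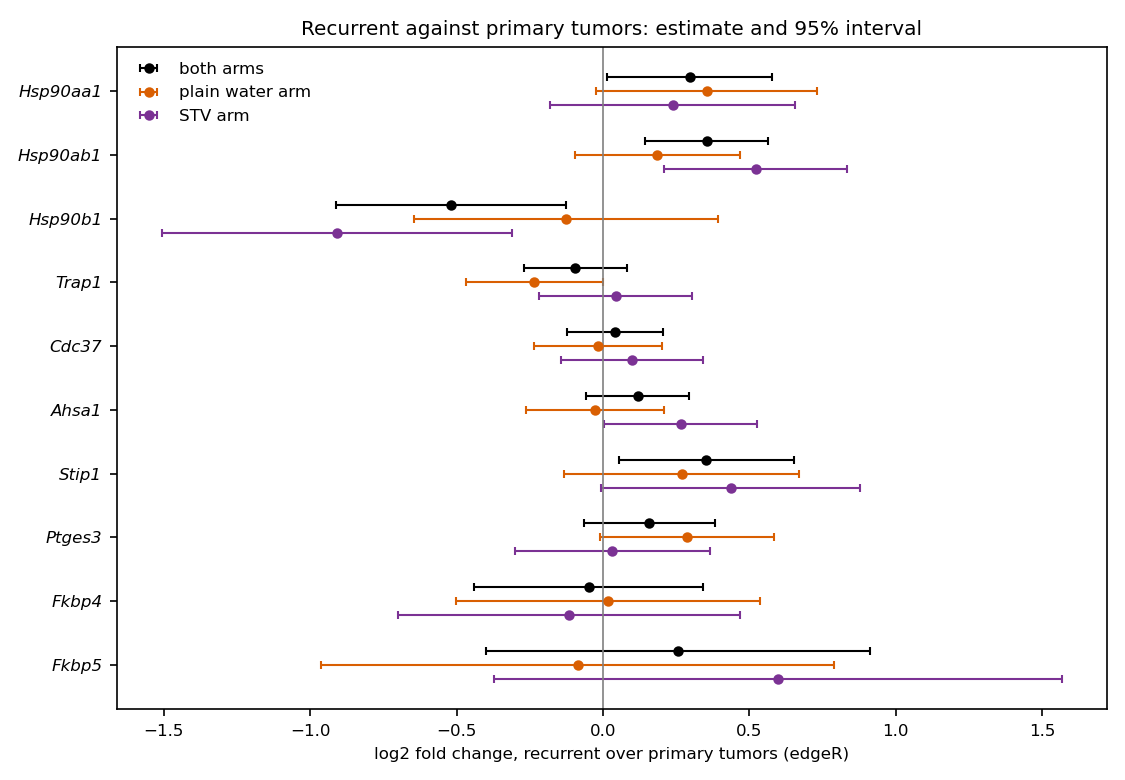
Log2 fold change (x axis, edgeR) of recurrent over primary tumors for each of the 10 genes (y axis), in mice without STV, with STV and averaged; points are estimates and bars 95% intervals. Hsp90b1 lies at -0.13 without STV and -0.91 with STV, and Hsp90ab1 at 0.19 and 0.52.

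In primary tumors, STV against water left all 10 above an unadjusted p of 0.05, below which 3.76% of all genes fell. EdgeR called 0% and DESeq2 0.102% of genes, none of them among the 10. Hsp90aa1 and Ptges3 were higher and Trap1 lower without overlap, 3 of 10 beside 10.8% of all genes. In recurrent tumors, 3 of the 10 had an unadjusted p under 0.05 (7.84% of all genes), with Hsp90ab1 and Ahsa1 higher under STV and Hsp90b1 lower. EdgeR called 0% of genes there and DESeq2 1.76%, with none of the 10. Hsp90ab1, Trap1, Cdc37 and Ahsa1 were higher and Hsp90b1 lower without overlap, 5 of 10 beside 21.5% of all genes. For the difference between the arms edgeR called 0% and DESeq2 1.18%, none of the 10 was called by either, and none had an unadjusted p under 0.05 (7.84% of all genes). For tumors against glands edgeR called 10.4% of 17135 genes and none of the 10, and 2 of 10 had an unadjusted p under 0.05 (29.6% of all genes). These were Hsp90ab1 and Cdc37, also the 2 that did not overlap (11.5% of all genes). DESeq2 called 19.1% of genes there and limma voom 8.83%, each with Hsp90ab1.

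Of 15 genes for HSF1 and chaperones that heat shock is known to induce, 13 had a positive log2 fold change in recurrent against primary tumors and 2 a negative one. Over all genes, 50.3% were positive. None of the 15 was called by edgeR. At an unadjusted p under 0.05, where 13.6% of all genes fell, 4 were higher, and the list median was 0.29. Hspb1 (HSP27), a small heat shock protein, had the smallest p of all 16870 genes (log2 fold change 1.07, SE 0.13, edgeR adjusted p = 0.170). It was at 15.3, 13.7 and 12.8 CPM in primary untreated tumors and 16.1, 17.4 and 22.7 CPM in primary STV tumors. The recurrences had 24.1, 23.8 and 21.8 CPM after 17-DMAG and 41.0 and 58.2 CPM after both drugs, and the glands had 14.1 and 16.2 CPM. The tumor at 58.2 CPM had 1894 CPM of skeletal muscle markers, whose part was not tested. The lowest recurrence, at 21.8, lay just under the highest primary tumor. Among recurrent tumors, those given STV were higher by 1.102 (SE 0.19, edgeR adjusted p = 0.166).

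Of the other 31 cytosolic co-chaperones, 20 were positive and 11 negative in recurrent against primary tumors, with a median of 0.073 and no call. The smallest p was that of Unc45a, a chaperone of myosin (0.53, SE 0.14, edgeR adjusted p = 0.287). Its levels were 29.3 to 40.3 CPM in primary and 41.4 to 68.3 CPM in recurrent tumors, without overlap, as for 1.34% of all genes. The tumor at 68.3 CPM had 1894 CPM of skeletal muscle markers, whose part was not tested. In tumors against glands, none of the 31 was called, with 3 higher and 6 lower at an unadjusted p under 0.05, where 29.6% of all genes fell.

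All 18 ER chaperone genes had a negative log2 fold change in recurrent against primary tumors, as Hsp90b1 did, with a median of -0.24. Over all genes, 50.3% were positive. Primary untreated replicate 2 was above the tumor mean in all 18, and the list was not examined without it. None of the 18 was called, and 5 were at an unadjusted p under 0.05, where 13.6% of all genes fell. The smallest p was that of Sdf2l1, a stress-induced ER protein (-0.89, SE 0.31, edgeR adjusted p = 0.314). It was at 17.6 and 12.99 CPM in the recurrences under both drugs and 70.3 CPM in primary untreated replicate 2. Hspa5, the main HSP70 of the ER, had 618, 1323 and 669 CPM in primary untreated tumors, 781, 758 and 691 in primary STV tumors, 867, 821 and 674 after 17-DMAG, and 557 and 459 after both drugs. Like Hsp90b1, it was thus highest in primary untreated replicate 2 and lowest among tumors in the recurrences under both drugs. Among recurrent tumors, STV against no STV gave 14 negative and 4 positive values of the 18 and a median of -0.35. Over all genes, 49.4% were positive in that comparison. The smallest p there was that of Pdia3, a disulfide isomerase (-0.58, SE 0.16, edgeR adjusted p = 0.377). In tumors against glands, none of the 18 was called.

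**Figure D4:**
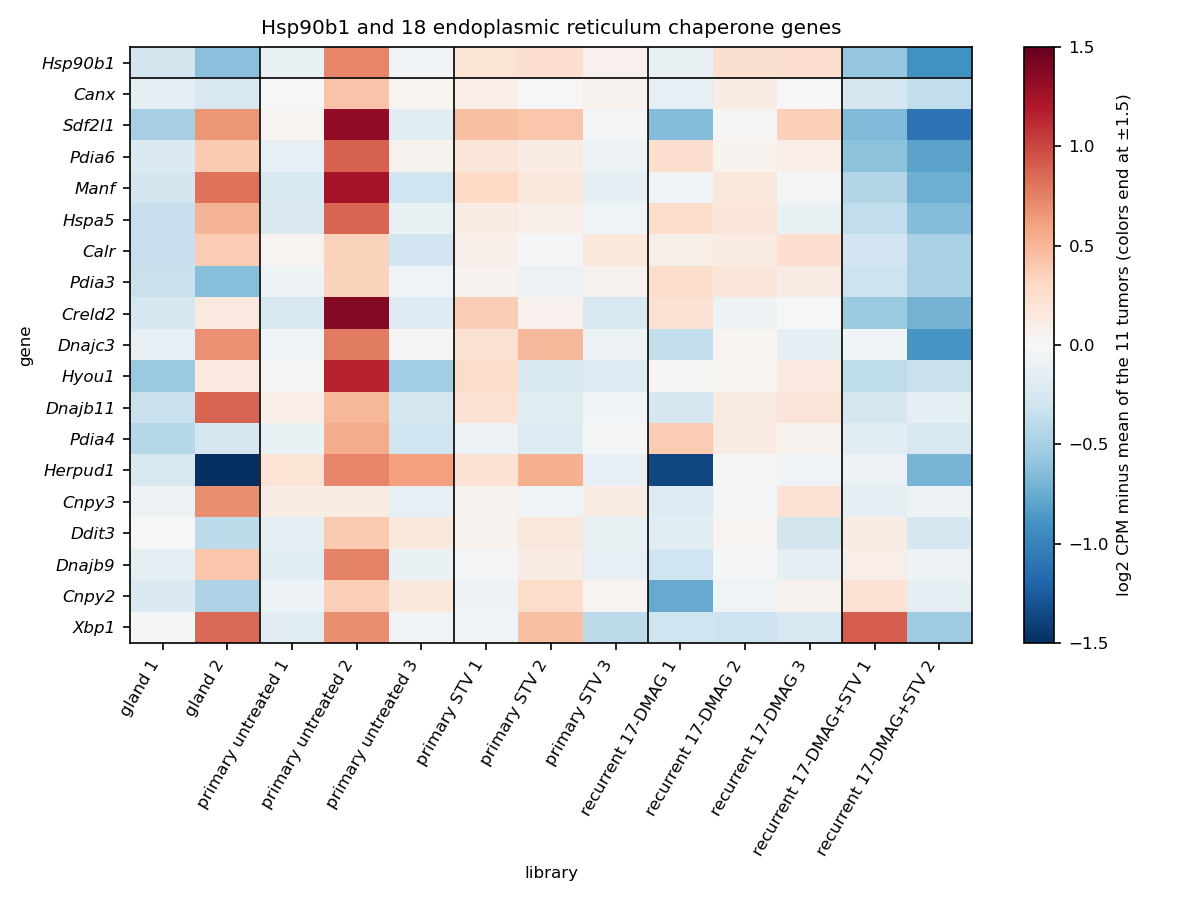
Log2 CPM of Hsp90b1 (top row) and 18 ER chaperone genes (rows) in 13 libraries (columns), as the difference from the mean of the 11 tumors, with colors ending at 1.5 in either direction. Primary untreated replicate 2, where Hsp90b1 was at 1664 CPM, is above the tumor mean in all 18 rows. Of the recurrences under both drugs, the one at 531 CPM is below it in all 18 and the one at 668 CPM in 14, with Dnajb9, Cnpy2, Xbp1 and Ddit3 above.

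Mitochondrial chaperones and proteases, the setting of Trap1, gave 5 positive and 10 negative values of 15 in recurrent against primary tumors and a median of -0.078. None was called, and the smallest p was that of the protease gene Afg3l2 (-0.22, edgeR adjusted p = 0.340). Among 5 steroid receptors, clients of the FKBP4 and PTGES3 complexes, 1 was positive and 4 negative in recurrent against primary tumors. Of 12 genes that glucocorticoids induce, 5 were positive and 7 negative in recurrent tumors, none called, and the smallest p was that of Klf9, a transcription factor (-0.56, edgeR adjusted p = 0.289). Of 17 kinase clients, 7 were positive and 10 negative in recurrent tumors, with the smallest p for Cdk4 (0.35, edgeR adjusted p = 0.355).

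In tumors against glands, edgeR called 12 genes of these lists, but none of the 12 without gland 2, the library with 764799 CPM of milk protein genes, and 10 without gland 1. With both glands, Clpx, the unfoldase of the ClpXP protease, had a log2 fold change of -0.96 and Nr3c1, the glucocorticoid receptor, -0.83. Among kinase clients, Akt1 had -1.19, Chuk -0.80, Ripk1 -0.66 and Egfr 0.60. Without gland 2 these became -0.10 for Clpx, -0.063 for Nr3c1, 0.22 for Akt1, -0.070 for Chuk, -0.16 for Ripk1 and 0.52 for Egfr. Akt1 was at 158 and 627 CPM in the glands and 137 to 208 CPM in the tumors, so that gland 1 lay within the tumor range. Clpx, Nr3c1, Chuk, Mt1 and Mt2 were likewise within it in gland 1 and above it in gland 2. Of the glucocorticoid-induced genes, Zbtb16 went from -2.50 to -1.65 without gland 2, Mt2 from -1.72 to -0.58, Mt1 from -1.47 to -0.15, and Errfi1, a feedback inhibitor of EGFR family kinases, from 1.17 to 0.88. The small heat shock protein genes Hspb1 (0.62, and 0.81 without gland 2) and Hspb8 (-1.98 and -1.66) were called with both glands and not without either.

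Across the 11 tumors, the levels of the 10 genes were correlated as a description. The points share a sequencing series and group structure, and several values turn on a few tumors. For log2 CPM, Hsp90ab1 and Stip1 had r = 0.90, and 0.92 without the 2 tumors farthest from the median of Hsp90ab1. Hsp90aa1 followed Stip1 (r = 0.88, and 0.64 without 2 tumors) and Ptges3 (0.80 and 0.70). Hsp90aa1 and Hsp90ab1 had r = 0.73, and 0.51 without 2 tumors. Hsp90ab1 against Hsp90b1 had r = -0.77, which became -0.27 without 2 tumors, so that this relation rests on those tumors. Trap1 against Ptges3 had r = -0.87, which became 0.16.

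Set against the lists, Hsp90b1 had a positive r with all 18 ER chaperone genes, with a median of 0.77 and a range from 0.23 for Xbp1 to 0.94 for Canx. The tumor with the highest Hsp90b1, primary untreated replicate 2, was above the tumor mean in all 18. The tumor with the lowest, replicate 2 of the recurrences under both drugs, was below it in all 18. This median and range were not computed without these tumors. Hsp90ab1 had a positive r with none of those 18, and with 14 of the 15 heat shock genes (median 0.56), the highest for Hspb1 (0.89). The 2 tumors farthest from the median of Hsp90ab1 were the recurrences under both drugs. They also had the highest Hspb1 (41.0 and 58.2 CPM) of the tumors. The values of Hsp90ab1 against these lists were not computed without them. Hsp90aa1 was positive with 13 of the 15 (median 0.48), the highest for Hsph1 (0.80). Trap1 was positive with 11 of 15 mitochondrial genes (median 0.50). Fkbp5 was positive with 6 of the 12 glucocorticoid-induced genes (median 0.11), from -0.26 for Errfi1 to 0.64 for Zbtb16 (0.51 without 2 tumors). Its r of 0.61 with Sgk1 became 0.078, and with Nr3c1 it had 0.27.

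Among the 12757 genes whose log2 CPM averaged 1 or more, the most like Hsp90ab1 over the 11 tumors were Fam120a (r = 0.98), Angpt1 (0.95) and Peak1 (0.94). Without 2 tumors these were 0.92, 0.89 and 0.87. The most like Hsp90b1 were Canx (0.94, and 0.84 without 2 tumors), Fkbp2 (0.93, and 0.76) and Sdf2l1 (0.93, and 0.83). Canx encodes the lectin chaperone calnexin, and Fkbp2 an immunophilin of the ER. The most like Hsp90aa1 were Rpl13a (0.96, and 0.89 without 2 tumors), Tmcc1 (0.92, and 0.76) and Ube2n (0.92, and 0.83). For Trap1 they were Rufy1 (0.96, and 0.83 without 2 tumors), Polr3g (0.95, and 0.78) and Zadh2 (0.95, and 0.68).

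Markers of other cell types moved with some of these values. The summed level of 6 macrophage markers was 126 to 174 CPM in primary and 135 to 478 CPM in recurrent tumors. All 6 had a positive log2 fold change, 5 of them at an unadjusted p under 0.05 (13.6% of all genes), and none of them was at 0 over a group. The 4 pan-leukocyte markers summed to 49.0 to 59.3 CPM in primary and 59.5 to 151 CPM in recurrent tumors, and the 5 fibroblast markers to 179 to 511 and 236 to 3271 CPM. The highest of each was replicate 1 of the 17-DMAG recurrences, which also had the highest Hsp90aa1, Stip1, Ptges3, Fkbp4 and Fkbp5 of the 11 tumors. Over the 11 tumors, Hsp90ab1 had r = 0.72 with the macrophage markers, and 0.84 without the 2 recurrences under both drugs. For Hsp90aa1 it was 0.71, and 0.18 without the 2 tumors farthest from its own median. By the same rule it was 0.80 and 0.58 for Stip1, and 0.71 and 0.27 for Ptges3. Fkbp4 had 0.60 and -0.042, and Fkbp5 0.59 and 0.52. Without replicate 1 of the 17-DMAG recurrences, recurrent against primary gave 0.32 for Hsp90ab1 (unadjusted p = 0.0034, edgeR adjusted p = 0.281). In the recurrences under both drugs, the 6 proliferation markers summed to 352 and 155 CPM against 490 to 761 in primary tumors. At an unadjusted p under 0.05, where 7.84% of all genes fell, 6 of 6 were lower than in the 17-DMAG recurrences. Skeletal muscle markers summed to 1894 CPM in 1 of the 2 recurrences under both drugs. Hsp90b1 had r = 0.66 with the proliferation markers, and 0.68 without 2 tumors. The part of these cell types and of proliferation in the differences of the 10 genes was not tested.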

How the data were processed

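Total RNA of frozen tissue was depleted of rRNA and made into strand-marking (dUTP) libraries. According to the submitters' processing notes and the study's methods, the authors ran bcl2fastq 2.20, used STAR for alignment to mm10 (GRCm38), and obtained gene counts by featureCounts (Subread 1.6.2). The authors deposited raw counts, whole numbers with no normalization. The strand setting and the handling of reads with several positions were not given in the sources used here.

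The 13 libraries were grouped by their labels. Counts were tested with edgeR 4.0.16 in R 4.3.3 (TMM, quasi-likelihood test, Benjamini-Hochberg adjustment over all genes that passed filterByExpr). Tumors were set against glands in a fit of all 13 libraries, with the 4 tumor groups weighted equally. The other 6 comparisons came from a fit of the 11 tumors. The common biological coefficient of variation was 0.431 and 0.402. The study used DESeq2, here an alternative (1.42.0), beside limma voom (3.58.1), other scalings, no filter, a replicate block, fits of fewer libraries and leaving out each library in turn. Depth was 39921388 to 56887708 counts per library, and floors cover counting error only.

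The 10 genes, the pathway lists and the marker lists were chosen with earlier results of these data known. All 10 were named. Of each pathway list, called genes (up to 3 in each direction) or else the gene with the smallest p were named. Hspa5, Xbp1, Hsph1, Sgk1, the genes with promoter matches and those set beside a correlation were named after their values were seen. Gene positions and transcript lengths came from GENCODE vM21, and promoters from RefSeq. Cdc37 was left out of the order of levels per length, since its value hangs on a transcript model of 7851 bases. No protein sequences were used here.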

Additional observations from a re-analysis of the deposited data

Results flagged for a closer look

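Of 20 groups tested (the 10 genes in primary tumors and in recurrent tumors), 2 had a sample far from the others by Dixon's test, and chance gives about 1 in 20. Both were replicate 1 of the 17-DMAG recurrences among the 5 recurrent tumors, for which the limit is 0.71 of the range. Gaps and ranges were taken on log2 CPM, while the levels below are in CPM. Ptges3 was at 152 CPM in it, next to 121 CPM, a gap of 0.795 of the range from 114 CPM. Fkbp4 was at 197 CPM in it, next to 119.5 CPM, a gap of 0.775 of the range from 103 CPM. This is the tumor with the highest summed fibroblast (3271 CPM) and macrophage (478 CPM) markers, and their part in these levels was not tested. No difference between the arms of any of the 10 genes passed the edgeR test.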

How the results depend on the processing

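EdgeR called 0 of the 10 genes in every comparison, and in tumors against glands the count became 1 with DESeq2, with limma voom and without the milk, muscle and adipocyte genes, and ran from 0 to 1 when single libraries were left out (1 without replicate 1 of the 17-DMAG recurrences). It became 1 with DESeq2 in recurrent against primary tumors and 2 within STV. These calls were Hsp90ab1 and, within STV, Hsp90b1. Over all genes, tumors against glands gave 1785 calls with edgeR and 3242 with DESeq2, 489 with library totals, 371 with the replicate block, 361 with primary untreated tumors alone, 4255 without gland 1, 535 without gland 2, 3100 without replicate 1 of the 17-DMAG recurrences, 1176 without replicate 3 of the primary untreated tumors and 1168 without replicate 1 of the recurrences under both drugs. The other comparisons, at 0 with edgeR, gave 410 (recurrent against primary), 61 (no STV), 331 (STV), 17 (STV in primary), 266 (STV in recurrent) and 189 (difference between arms) with DESeq2. Without replicate 1 of the recurrences under both drugs, which leaves 1 library assumed to vary like the rest, edgeR gave 6 (recurrent against primary), 100 (STV), 141 (STV in recurrent) and 77 (difference between arms). Without any other single library it gave at most 18.

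The replicate numbers did not pair the samples. Over 15 pairs of equal number the correlation of deviations ran from -0.30 to 0.22 (median -0.051), and 2 were over 0.1. With the replicate block, no call among the 10 genes changed, and these log2 fold changes changed sign: Ptges3 0.020 and Fkbp5 0.027 (tumors against glands), Fkbp4 -0.0074 (no STV) and Ptges3 -0.022 (STV). The cause of these and the following sign changes was not tested, and none was of a called value of the 10 genes.

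In tumors against glands, library totals alone moved the median of all genes to 0.37 and gave Trap1 0.25, Ptges3 0.37, Fkbp4 0.39 and Fkbp5 0.46. Hsp90aa1 was -0.00097 with DESeq2 size factors, -0.00083 with DESeq2 and -0.27 with primary untreated tumors alone, which also gave Stip1 -0.19 and Fkbp5 0.0071. Ptges3 was 0.010 without the milk, muscle and adipocyte genes. In recurrent against primary tumors without STV, Cdc37 was 0.0067 with DESeq2 size factors, 0.0068 with DESeq2 and 0.019 with library totals, Ahsa1 0.0049 with library totals and Fkbp4 -0.027 with limma voom. For STV in primary tumors, Hsp90ab1 was 0.0095 with DESeq2 size factors and with DESeq2, 0.037 with library totals, 0.016 with no filter and 0.018 with the compared groups alone.

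Of the 12 pathway-list genes called in tumors against glands, 0 were called without gland 2 and 10 without gland 1, alternatives chosen after seeing the data. Akt1 turned from -1.19 to 0.22 without gland 2 and was -1.82 without gland 1. Leaving out single libraries turned the sign of these log2 fold changes. In tumors against glands, Hsp90aa1 ran from -0.20 to 0.42, Trap1 from -0.22 to 0.013, Stip1 from -0.10 to 0.31, Ptges3 from -0.054 to 0.078, Fkbp4 from -0.59 to 0.49 and Fkbp5 from -0.33 to 0.41. In recurrent against primary tumors, Fkbp4 ran from -0.21 to 0.051. Without STV, Hsp90b1 ran from -0.28 to 0.21, Cdc37 from -0.067 to 0.078, Ahsa1 from -0.076 to 0.021, Fkbp4 from -0.29 to 0.23 and Fkbp5 from -0.43 to 0.20. With STV, Trap1 ran from -0.0098 to 0.078 and Ptges3 from -0.0087 to 0.054. For STV in primary tumors, Hsp90ab1 ran from -0.042 to 0.056, Hsp90b1 from -0.24 to 0.26, Cdc37 from -0.022 to 0.066, Ahsa1 from -0.0055 to 0.052 and Fkbp4 from -0.19 to 0.062. For STV in recurrent tumors, Ptges3 ran from -0.18 to 0.049 and Fkbp4 from -0.44 to 0.081. For the difference between arms, Hsp90aa1 ran from -0.27 to 0.079, Stip1 from -0.0026 to 0.36 and Fkbp4 from -0.35 to 0.17. Hsp90ab1 and Hsp90b1 in recurrent against primary tumors, with STV and averaged, kept their sign under all alternatives run. The lowest count of any of the 10 genes in a library was 1663.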
